A study of Mus musculus with 6 samples.

Results

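The genes described here are 36 genes of granulocytes, monocytes and red blood cell precursors, read in libraries of sorted B cells. They were taken by name from a table of 22098 gene names, with the transcript of the highest mean standing for a gene that had several. Of the 36, 23 belong to granulocytes and monocytes and 13 to the erythroid lineage, and 34 passed a minimum mean of 1 RPKM (a read density that corrects for transcript length and for the size of the library), as did 10322 gene names in all. The question was how much RNA of such genes each library held and how that differed between libraries and genotypes.

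Polyadenylated RNA had been sequenced from IgM+ B cells sorted from bone marrow of C57BL/6 mice aged 6 weeks. There were 3 groups of 2 libraries: wild type, Ikaros ZnF1-/- (lacking zinc finger 1 of Ikaros, a DNA-binding regulator of lymphocyte development) and Ikaros ZnF4-/- (lacking zinc finger 4). The labels number the libraries as replicates without saying that they came from separate animals, so a p-value measures only the spread between these samples. The labels give no purity of the sort.

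Neutrophils form in the marrow through stages that load different granules in turn: promyelocytes make the proteases of azurophil granules, and later cells make the proteins of specific and then gelatinase granules. Red cell precursors pass from early cells that depend on the erythropoietin receptor and the factors Gata1 and Klf1 to late cells filled with globin, haem enzymes and membrane proteins. None of these proteins is a product that defines an IgM+ B cell, although B cells can transcribe some genes shared with myeloid cells.

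The markers of the labelled cell type were abundant: Cd79b, which signals for the antigen receptor of B cells, ranged from 1604.1 to 2226.7 RPKM. B cell genes from a fixed list of 11 summed to between 17718 and 24087 RPM (RPKM times transcript length in kilobases, that is, scaled to the library but not to length), lowest in ZnF1 replicate 2. The CD3 subunits of the T cell receptor complex were near the lower end of the scale, with Cd3e between 0.2 and 0.7 RPKM. Of 9 T cell genes found, 2 reached the minimum mean, Cd5 and Lck, the latter at 11.2 to 19.9 RPKM. ZnF1 replicate 2 stood apart in the genes described here: all 36 were highest in it, against 18.5% of all tested genes. The calls and medians of members in the ZnF1 mutant are therefore also given without that library. Other ZnF1 results, among them those of other lists and most single genes, include it.

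Summed over the members, with near-identical globin rows counted once, wild-type replicates 1 and 2 held 608 and 949 RPM and ZnF4 replicates 1 and 2 held 1725 and 2002. ZnF1 replicate 1 held 1368, and ZnF1 replicate 2 held 8089. Both ZnF4 libraries and ZnF1 replicate 1 were therefore above both wild-type libraries, and ZnF1 replicate 2 was far above all. In RNA of a sorted population, fewer cells of a type and less RNA per cell cannot be told apart.

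The granulocyte and monocyte members made 437 and 723 RPM in wild type, 1236 and 7060 in ZnF1 and 1477 and 1689 in ZnF4. The erythroid members made 171 and 225 in wild type, 132 and 1030 in ZnF1 and 248 and 313 in ZnF4. ZnF1 replicate 1 was thus above wild type for the granulocyte genes and below both wild-type libraries for the erythroid sum. The plot of summed reads sets these sums beside those of 2 other lists.

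**Figure D1:**
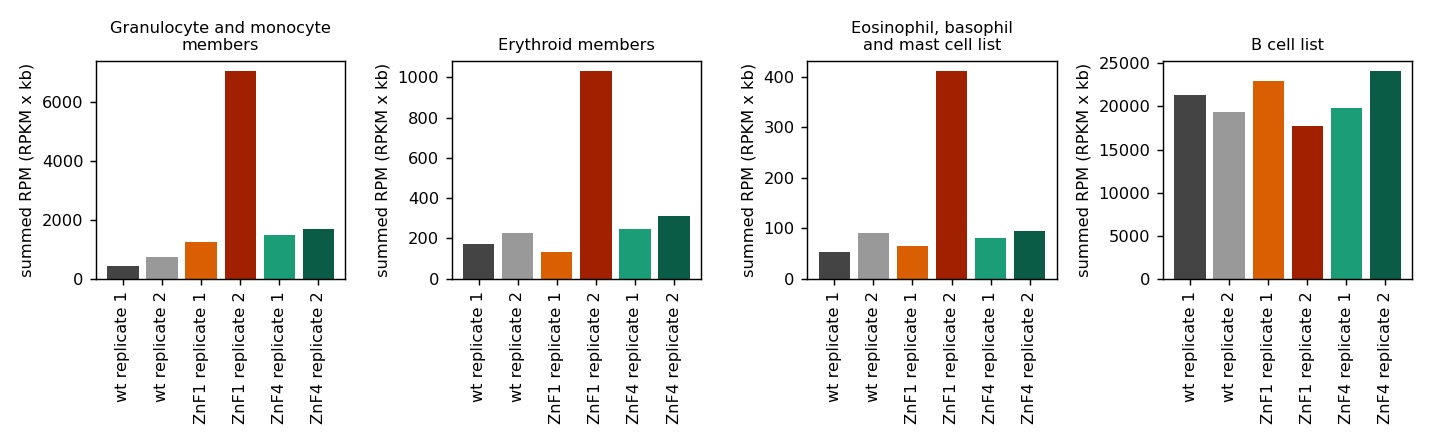
Summed RPM (RPKM times length in kb) of 4 gene lists in each of the 6 libraries; each panel has its own linear axis from 0, and a bar is 1 library. ZnF1 replicate 2 is highest in the first 3 panels and lowest for the B cell list, and ZnF1 replicate 1 is above wild type in the first panel (1236) and lowest in the second (132).

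The azurophil granule genes encode myeloperoxidase (Mpo), which makes hypochlorous acid, and the serine proteases neutrophil elastase (Elane), proteinase 3 (Prtn3) and cathepsin G (Ctsg). Mpo was at 4.8 and 14.2 RPKM in wild type, 24.2 and 159.3 in ZnF1 and 23.9 and 22.5 in ZnF4. Elane was at 2.3 and 6.5 in wild type, 9.5 and 56.2 in ZnF1 and 14.4 and 18.1 in ZnF4. Both genes had every mutant library above both wild-type libraries. Prtn3 was at 1.4 and 3.4 in wild type, 9.2 and 44.5 in ZnF1 and 9.3 and 10.9 in ZnF4. Ctsg was at 1.1 and 4.0, 6.1 and 50, and 7.3 and 10.3 RPKM in the same order. The 4 genes were higher in wild-type replicate 2 than in replicate 1 as well, Mpo by 2.96 times.

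Specific granules carry the antimicrobial proteins neutrophilic granule protein (Ngp), cathelicidin (Camp), lactoferrin (Ltf) and lipocalin 2 (Lcn2), and the collagenase Mmp8. Gelatinase B (Mmp9) and the resistin-like protein Retnlg belong to later stages. The promoters of Ngp, Ltf and Mmp8 are shown because these genes of 1 granule class had different levels in ZnF4. They are the 250 bases before the start in the RefSeq table of GRCm38.p6, all on the plus strand: Ngp chr9:110419558-110419807, Ltf chr9:111019042-111019291 and Mmp8 chr9:7558179-7558428. Capitals mark the C/EBP letters TTGCNNAA on either strand and, in Ltf, the GATA letters AGATAA.
Ngp: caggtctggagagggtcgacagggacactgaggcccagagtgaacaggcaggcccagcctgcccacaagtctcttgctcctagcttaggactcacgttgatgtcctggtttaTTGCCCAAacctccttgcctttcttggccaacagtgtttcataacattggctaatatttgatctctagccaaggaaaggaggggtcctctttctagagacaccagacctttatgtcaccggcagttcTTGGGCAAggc
Ltf: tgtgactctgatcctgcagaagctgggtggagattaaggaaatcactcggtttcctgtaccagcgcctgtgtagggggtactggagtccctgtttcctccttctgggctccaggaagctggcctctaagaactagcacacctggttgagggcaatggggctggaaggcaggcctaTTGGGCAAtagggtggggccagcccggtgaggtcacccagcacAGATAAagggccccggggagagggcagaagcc
Mmp8: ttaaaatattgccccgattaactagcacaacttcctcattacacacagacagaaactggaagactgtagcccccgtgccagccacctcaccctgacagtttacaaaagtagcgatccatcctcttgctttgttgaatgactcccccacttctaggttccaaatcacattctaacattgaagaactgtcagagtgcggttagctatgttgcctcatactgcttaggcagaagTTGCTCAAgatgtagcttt

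C/EBP factors drive many granule genes in developing granulocytes. In windows reaching 50 bases past the start, 8 of the 19 granulocyte and monocyte members found in the promoter table held TTGCNNAA (42.11%: Fcgr3, Lcn2, S100a9, Mmp8, Ngp, Ltf, Lyz1 and Retnlg), as did 10.75% of all 27025 promoters. Of 8 erythroid members found, 0 held it. A match is a description of letters and not a binding site.

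Ngp was at 60.2 and 124.4 RPKM in wild type, 175.1 and 1035.0 in ZnF1 and 234.1 and 240.2 in ZnF4. Camp was at 32.3 and 53.3, 80.6 and 508.7, and 131.7 and 158.7 in the same order, and Ltf at 22.6 and 39.4, 59.0 and 365.2, and 80.4 and 106.0. Lcn2 was at 27.6 and 39.7 in wild type, 82.6 and 490.2 in ZnF1 and 98.1 and 176.6 in ZnF4. All 4 antimicrobial genes had every mutant library above both wild-type libraries, and ZnF4 above ZnF1 replicate 1. The enzymes and Retnlg were closer to wild type in ZnF4. Mmp8 was at 4.1 and 5.7 in wild type, 9.8 and 62.8 in ZnF1 and 6.5 and 7.4 in ZnF4. Mmp9 was at 3.9 and 9.4, 13.1 and 70.3, and 12.1 and 11.8. Retnlg was at 13.8 and 32.0, 34.8 and 282.6, and 22.6 and 36.9, so that its ZnF4 and wild-type libraries overlapped. All 3 promoters printed above hold a C/EBP match, whether the gene was like Ngp or like Mmp8 in ZnF4.

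S100a8 and S100a9 form calprotectin, the main cytosolic protein pair of neutrophils, and were the most abundant members. S100a8 was at 118.8 and 187.7 RPKM in wild type, 416.2 and 1808.1 in ZnF1 and 524.5 and 427.8 in ZnF4. S100a9 was at 179.4 and 247.1 in wild type, 576.3 and 3134.7 in ZnF1 and 670.6 and 805.3 in ZnF4. Both had every mutant library above both wild-type libraries.

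Mouse lysozyme comes from 2 genes, the myeloid Lyz2 and Lyz1, the lysozyme of intestinal Paneth cells. Their coding sequences differ at 22 of 447 bases, 14 of them among the first 150, which are printed to show where reads of the 2 genes can differ; capitals mark the differing bases (GENCODE M21 transcripts, GRCm38, minus strand, Lyz1 at chr10:117287797-117292868 and Lyz2 at chr10:117277331-117282321).
Lyz1: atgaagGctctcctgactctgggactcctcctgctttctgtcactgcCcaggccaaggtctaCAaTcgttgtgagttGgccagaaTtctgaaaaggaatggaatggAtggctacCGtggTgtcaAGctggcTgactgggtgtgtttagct
Lyz2: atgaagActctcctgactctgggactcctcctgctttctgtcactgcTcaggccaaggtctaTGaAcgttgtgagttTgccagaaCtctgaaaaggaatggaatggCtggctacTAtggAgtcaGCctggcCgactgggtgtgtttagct

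Lyz2 was at 26.6 and 32.2 RPKM in wild type, 52.9 and 324.0 in ZnF1 and 62.7 and 64.5 in ZnF4. Lyz1 was listed at 0 in wild-type replicate 1, ZnF1 replicate 1 and ZnF4 replicate 2, at 0.1 in wild-type replicate 2 and ZnF4 replicate 1, and at 10.9 in ZnF1 replicate 2. Lyz1 thus passed the minimum through 1 library. Its level there was 0.034 of that of Lyz2, against at most 0.0031 elsewhere. How the authors treated reads shared by the pair is not given in the sources used here, so the Lyz1 value is uncertain.

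Of the receptors, Csf3r binds G-CSF, Csf1r binds M-CSF on monocytes, Itgam is CD11b and Fcgr3 is an Fc receptor. Csf3r was at 0.6 and 1.4 RPKM in wild type, 2.1 and 17.0 in ZnF1 and 1.5 and 1.6 in ZnF4. Itgam was at 5.6 and 6.5, 7.0 and 44.4, and 6.5 and 8.0. Csf3r was above both wild-type libraries in all 4 mutant libraries, while Itgam in ZnF4 replicate 1 equalled wild-type replicate 2. Fcgr3 was at 1.7 and 1.7, 4.1 and 20, and 2.7 and 2.6. Csf1r was at 2.8 and 2.2 in wild type, 2.5 and 12 in ZnF1 and 2.1 and 1.3 in ZnF4. Both ZnF4 libraries were below wild type, replicate 1 only just (2.1 against 2.2). The lipopolysaccharide co-receptor Cd14 was not tested and lay between 0.2 and 1.7 RPKM.

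Cebpe, a factor needed for specific granules, was at 0.3 and 1.2 RPKM in wild type, 1.3 and 7.4 in ZnF1 and 2.4 and 3.3 in ZnF4. Padi4, the enzyme that converts arginine of histones to citrulline in neutrophil extracellular trap formation, was at 2.6 and 4.5 in wild type, 5.2 and 16.9 in ZnF1 and 1.5 and 1.4 in ZnF4. Padi4 was therefore above wild type in both ZnF1 libraries and below wild type in both ZnF4 libraries, the reverse of Cebpe in ZnF4. The factor Cebpa was not tested and lay between 0.2 and 2.8 RPKM.

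**Figure D2:**
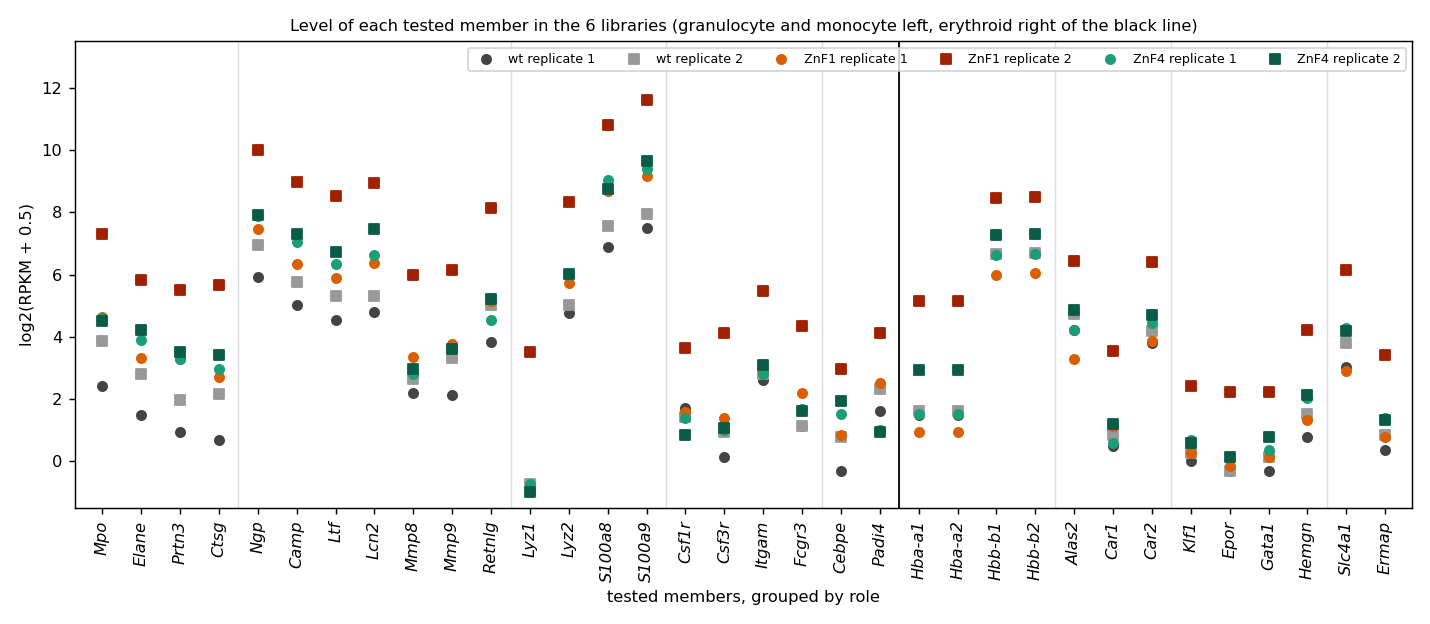
Level of each of the 34 tested members in the 6 libraries on a log2 axis (RPKM + 0.5), grouped by role; each point is 1 library. ZnF1 replicate 2 is the highest point for every gene. ZnF4 points lie above the wild-type points for most granule genes and below them for Padi4 and, only just in replicate 1, for Csf1r.

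Globin rows need care. Undoing the transcript length, Hba-a1 and Hba-a2 held the same reads to within 0.707% and Hbb-b1 and Hbb-b2 to within 0.217%, so each pair is 1 measurement. Unless stated otherwise, counts of members include both rows of each pair. The row named Hbb-b1 is Hbb-bt under its current name. The alpha-globin coding sequences differ at 1 of 429 bases. The stretch around that difference is printed to show how little can separate reads of the 2 genes, with the differing base in capitals (GENCODE M21, GRCm38; coding bases 341 to 421, chromosome 11, plus strand).
Hba-a1: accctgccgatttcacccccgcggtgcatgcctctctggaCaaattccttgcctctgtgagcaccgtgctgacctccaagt
Hba-a2: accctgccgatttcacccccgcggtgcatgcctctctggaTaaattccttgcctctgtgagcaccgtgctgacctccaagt

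Hbb-b1 was at 101.4 and 100.5 RPKM in wild type, 63.6 and 353.7 in ZnF1 and 99.1 and 152.9 in ZnF4. Hbb-b2 followed it, at 104.1 and 102.9, 65.2 and 363.2, and 101.7 and 156.8. ZnF1 replicate 1 had the lowest beta-globin of the 6 libraries and ZnF1 replicate 2 the highest. Hba-a1 was at 2.3 and 2.6 RPKM in wild type, 1.4 and 35.3 in ZnF1 and 2.4 and 7.2 in ZnF4, and Hba-a2 at 2.3 and 2.6, 1.4 and 35.2, and 2.4 and 7.2. The listed length of Hba-a1, 1124 bases, exceeds the 815 bases that RefSeq gives the gene, so alpha and beta levels are not compared with each other here. Across libraries the Hba-a1 to Hbb-b1 ratio lay between 0.022 and 0.026 in both wild-type libraries, ZnF1 replicate 1 and ZnF4 replicate 1, was 0.0471 in ZnF4 replicate 2 and reached 0.0998 in ZnF1 replicate 2.

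Alas2 is the erythroid enzyme that starts haem synthesis, and Car1 and Car2 are the carbonic anhydrases of red cells. The Alas2 promoter is shown as the erythroid counterpart of those above (the 250 bases before the start, GRCm38.p6, chrX:150547167-150547416, plus strand), with the GATA letters AGATAA, here read on the other strand, in capitals.
Alas2: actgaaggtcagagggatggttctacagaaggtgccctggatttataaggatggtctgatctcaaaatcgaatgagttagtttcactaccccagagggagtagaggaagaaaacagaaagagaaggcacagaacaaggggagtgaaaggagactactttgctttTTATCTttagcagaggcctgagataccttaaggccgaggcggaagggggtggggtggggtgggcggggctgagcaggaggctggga

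AGATAA was in 3 of 8 erythroid promoters (37.5%: Hemgn, Epor and Alas2), in 2 of 19 of the other members and in 11.41% of all. CCACACCC, the letters of KLF factors, was in 0 of 8 erythroid promoters, in that of Camp among the other 19 and in 3.57% of all. Both motifs were searched on both strands.

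Alas2 was at 18.3 and 25.9 RPKM in wild type, 9.3 and 85.6 in ZnF1 and 18.3 and 28.9 in ZnF4. Car2 was at 13.6 and 17.7, 14.1 and 83.9, and 21.2 and 25.4, and Car1 at 0.9 and 1.3, 1.7 and 11.1, and 1.0 and 1.8. Alas2 was lowest in ZnF1 replicate 1, as beta-globin was, and Car2 was near wild type there. The anion exchanger Slc4a1 (band 3) was at 7.7 and 13.4 in wild type, 6.9 and 71.3 in ZnF1 and 18.9 and 17.9 in ZnF4. The blood group protein Ermap was at 0.8 and 1.3, 1.2 and 10.1, and 2.1 and 2.0. Both membrane genes had the 2 ZnF4 libraries above wild type.

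The regulators were scarce. Klf1 was at 0.5 and 0.7 RPKM in wild type, 0.7 and 4.9 in ZnF1 and 1.1 and 1.0 in ZnF4. Epor, the erythropoietin receptor, was at 0.3 and 0.3, 0.4 and 4.2, and 0.6 and 0.6. Gata1 was at 0.3 and 0.6, 0.6 and 4.2, and 0.8 and 1.2. Values this low are recorded in steps of 0.1, so ratios between them are coarse. Hemgn, a nuclear protein of erythroid precursors, was at 1.2 and 2.4, 2.0 and 18.2, and 3.6 and 3.9. All 4 had both ZnF4 libraries above wild type.

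The difference between the 2 ZnF1 libraries was the largest seen between replicates of a genotype. Replicate 2 was above replicate 1 for 20 of 20 granulocyte and monocyte members with a value above 0 in both, with a median ratio of 5.93, from 3.25 (Padi4) to 8.20 (Ctsg). It was above for 11 of 11 erythroid members with each globin pair counted once, with a median ratio of 8.42, from 5.56 (Hbb-b1) to 25.2 (Hba-a1). Klf1, Epor and Gata1 are among these 11 and passed the minimum mean only through replicate 2, so the filter favoured high ratios for them. The median ratio in wild type was 1.74 and 1.42 for the 2 sides, and in ZnF4 1.14 and 1.20. Over all tested genes, with 0.5 added to each value, the ratio in ZnF1 had a median of 0.959.

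Set against the wild-type mean, the median granulocyte and monocyte member differed by 0.97 (log2) in ZnF1 replicate 1, 3.59 in ZnF1 replicate 2, and 1.31 and 1.38 in the ZnF4 libraries, with wild type at -0.36 and 0.36. The median erythroid member differed by -0.13, 2.55, 0.44 and 0.69, with wild type at -0.18 and 0.18. ZnF1 replicate 1 was above both wild-type libraries for 19 of 21 granulocyte and monocyte members and for 2 of 13 erythroid ones, and below both for Hba-a1, Hba-a2, Hbb-b1, Hbb-b2, Alas2 and Slc4a1. Each globin pair among these names is 1 measurement. Among all tested genes 38.7% were above both wild-type libraries in ZnF1 replicate 1, and 2951 of 10322 were below both.

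Of the 34 tested members, Lyz1, Klf1, Epor and Gata1 reached the minimum mean only through ZnF1 replicate 2 (means of 0.04, 0.8, 0.44 and 0.7 RPKM over the other libraries), so that their ZnF1 values had to be high. The main ZnF1 counts are also given for the other 30.

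In ZnF1 against wild type, 0 of 34 members passed the test (limma on log2(RPKM + 0.5), adjusted p under 0.05 over all tested genes), while 0.271% of all tested genes did. At an unadjusted p under 0.05, 19 members were higher and 0 lower, against 6.48% of all genes higher. All 34 fold changes were above 0, against 49.5% of all. Among the other 30, the same numbers were 19, 0 and 30. The medians were 2.26 (log2) for the 21 tested granulocyte and monocyte members and 1.28 for the 13 erythroid ones, and -0.0019 for all genes. The 2 groups did not overlap, with ZnF1 higher, for 19 of 21 and 2 of 13 members, against 21.1% of all genes. The 2 erythroid members were Car1 and Epor, and Epor passed the filter only through ZnF1 replicate 2.

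Prtn3 had the smallest p, with a log2 fold change of 2.94 (SE 0.65, adjusted p = 0.15 by limma). By limma, Mpo had 2.83 (SE 0.81, adjusted p = 0.238), Ngp 2.29 (SE 0.73, adjusted p = 0.275) and S100a9 2.67 (SE 0.67, adjusted p = 0.192). These 4 granulocyte genes had estimates over 3 times their error and did not pass. Itgam had 1.49 (SE 0.69, adjusted p = 0.466) and Padi4 1.34 (SE 0.48, adjusted p = 0.336). On the erythroid side Hbb-b2 had 0.57 (SE 0.67, adjusted p = 0.814), Alas2 0.38 (SE 0.85, adjusted p = 0.917), Hemgn 1.62 (SE 0.80, adjusted p = 0.498) and Slc4a1 1.11 (SE 0.88, adjusted p = 0.699).

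The ZnF1 result depended on which library was kept. Without ZnF1 replicate 1, 34 of 34 members were called higher, against 3.55% of all genes, with medians of 3.59 and 2.55; this assumes that the single ZnF1 library varies like the other groups. The calls of the 4 genes that passed the filter through that library were built in by the filter; the other 30 were all called, with medians of 3.59 and 2.77. Without ZnF1 replicate 2, 0 members were called, the granulocyte and monocyte median was 0.97, and the erythroid median turned to -0.13, or -0.58 without Klf1, Epor and Gata1. B cell genes moved the other way in ZnF1 replicate 2, as given above, and the part of other cells in these values was not tested.

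In ZnF4 against wild type, 0 of 34 members passed, while 3.2% of all tested genes did. At an unadjusted p under 0.05, 6 members were higher and 0 lower, against 8.23% of all genes higher. The medians were 1.42 (log2) for the granulocyte and monocyte members and 0.57 for the erythroid ones, and -0.0162 for all genes. ZnF4 was above wild type without overlap for 16 of 21 and 7 of 13 members, against 23.1% of all genes, and below for Csf1r and Padi4, against 27.2%. The 2 ZnF4 libraries were closer to each other than the 2 ZnF1 libraries, with median ratios of 1.14 and 1.20 for the 2 sides. Replicate 2 was still above replicate 1 by 3.0 times for Hba-a1 and by 1.80 times for Lcn2. Without ZnF4 replicate 2, the fold changes of 6 of the 13 erythroid members changed sign, with both rows of each globin pair counted in the 13.

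Prtn3 again had the smallest p, with 1.96 (SE 0.65, adjusted p = 0.177 by limma). By limma, Mpo had 1.42 (SE 0.81, adjusted p = 0.411), Ngp 1.45 (SE 0.73, adjusted p = 0.364) and S100a9 1.80 (SE 0.67, adjusted p = 0.226). Itgam had 0.24 (SE 0.69, adjusted p = 0.894) and Padi4 -1.01 (SE 0.48, adjusted p = 0.337). Erythroid estimates were within about their error: Hbb-b2 0.29 (SE 0.67, adjusted p = 0.869), Alas2 0.08 (SE 0.85, adjusted p = 0.977), Hemgn 0.94 (SE 0.80, adjusted p = 0.597) and Slc4a1 0.82 (SE 0.88, adjusted p = 0.686).

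The fit shares 1 estimate of the spread over the 3 genotypes, and the wide ZnF1 pair enters it. With only the wild-type and ZnF4 libraries, 9 members were called higher in ZnF4, against 3.48% of all genes: Elane, Prtn3, Ngp, Camp, Ltf, Lcn2, Lyz2, S100a8 and S100a9, with adjusted p-values from 0.00511 to 0.0361 (limma). The same 9 were called when ZnF1 replicate 1 or 2 was left out (3.5% and 3.44% of all genes called higher). In those fits the lone ZnF1 library adds nothing to the spread. They therefore nearly repeat the 2-genotype fit and are not separate evidence for the 9 calls. All 9 encode granule proteins, lysozyme or calprotectin, and 0 erythroid members were among them. The fits without a wild-type or a ZnF4 library kept the wide ZnF1 pair. Whether the 9 calls hold in the 2-genotype fit without 1 of its libraries was therefore not tested.

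**Figure D3:**
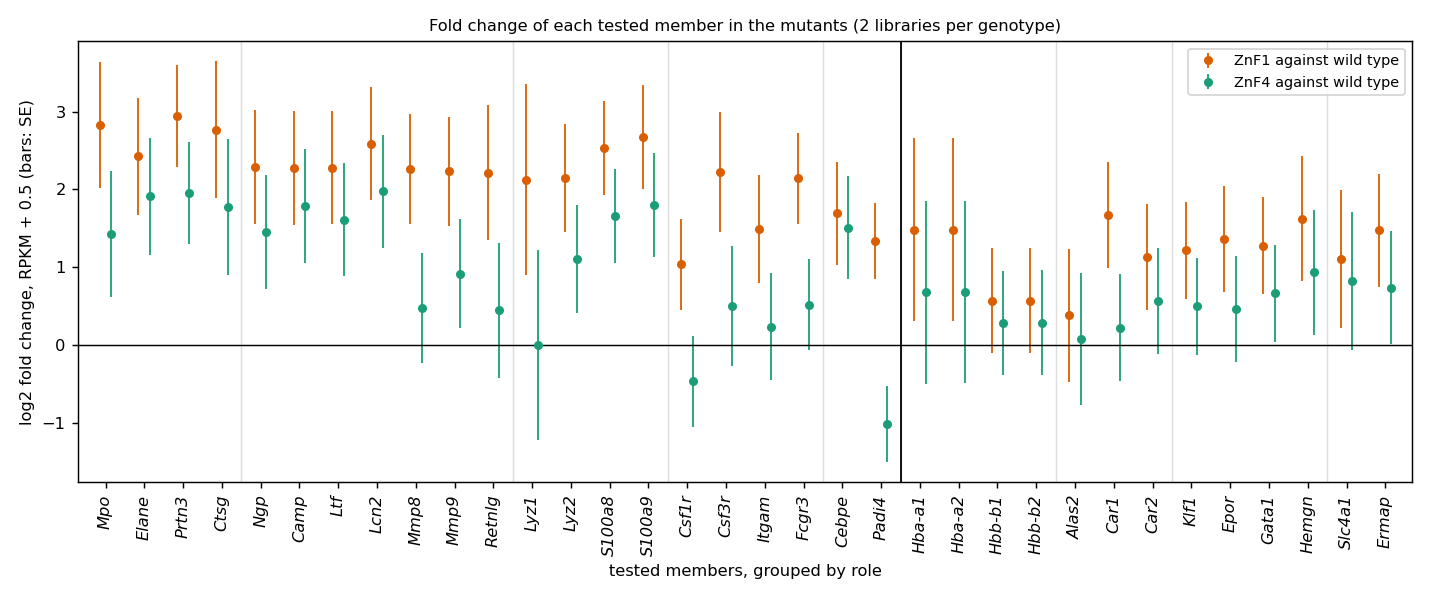
Log2 fold change (RPKM + 0.5) of each tested member in ZnF1 and in ZnF4 against wild type, with 2 libraries per genotype; points are limma estimates and bars 1 SE. All ZnF1 estimates are above 0, and the ZnF4 estimate is near the ZnF1 estimate for Cebpe (1.51 and 1.69). It is on the other side of 0 for Padi4 (-1.01 and 1.34) and Csf1r (-0.46 and 1.04). The ZnF4 estimate of Csf1r is smaller in size than its SE (0.59).

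The 2 comparisons above share their control libraries, and a direct one does not use them except for the spread. In ZnF1 against ZnF4, 1 of 34 members passed, against 4.78% of all tested genes (2.08% higher in ZnF1): Padi4 was higher in ZnF1, with a log2 fold change of 2.35 (SE 0.48, adjusted p = 0.0384 by limma). Both ZnF1 libraries (5.2 and 16.9 RPKM) were above both ZnF4 libraries (1.5 and 1.4). Without ZnF1 replicate 2 the Padi4 call held, with 1.55 (adjusted p = 0.0421, 1.31% of all genes called higher). The call was lost with no filter on low values (adjusted p = 0.127), without the intensity trend (0.0603) and with only the 2 mutants (0.0845). It was also lost without wild-type replicate 1 or 2 (0.0821 and 0.0817) and without ZnF4 replicate 1 or 2 (0.225 and 0.264).

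The other 33 did not pass. The medians were 1.04 for the granulocyte and monocyte members and 0.69 for the erythroid ones, against 0.0286 for all genes. ZnF1 was above ZnF4 without overlap for 7 of 21 and 0 of 13 members, against 25.8% of all genes. Direct estimates by limma were 1.41 for Mpo (SE 0.81, adjusted p = 0.394), 0.98 for Prtn3 (SE 0.65, adjusted p = 0.463), 0.84 for Ngp (SE 0.73, adjusted p = 0.587) and 0.87 for S100a9 (SE 0.67, adjusted p = 0.537). Itgam had 1.25 (SE 0.69, adjusted p = 0.374), Hbb-b2 0.29 (SE 0.67, adjusted p = 0.866), Alas2 0.31 (SE 0.85, adjusted p = 0.889), Hemgn 0.69 (SE 0.80, adjusted p = 0.707) and Slc4a1 0.29 (SE 0.88, adjusted p = 0.897). Without ZnF1 replicate 1, 32 members were called higher in ZnF1, against 4.73% of all genes, among them 28 of the 30 that did not pass the filter through ZnF1 replicate 2 alone. Without ZnF1 replicate 2 the medians turned to -0.13 and -0.76, and 25 of 34 members changed sign.

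Ratios within a library compare members without reference to the library's total. Ngp over Padi4 was 23.2 and 27.6 in wild type, 33.7 and 61.2 in ZnF1 and 156 and 172 in ZnF4. Elane over Retnlg was 0.167 and 0.203, 0.273 and 0.199, and 0.637 and 0.491. Cebpe over Csf3r was 0.5 and 0.857, 0.619 and 0.435, and 1.60 and 2.06. In all 3 ratios both ZnF4 libraries were above the other 4. Mpo over Mmp8 was 1.17 and 2.49 in wild type, 2.47 and 2.54 in ZnF1 and 3.68 and 3.04 in ZnF4, the same order with a smaller gap. Mpo over Ngp had another order, at 0.0797 and 0.114 in wild type, 0.138 and 0.154 in ZnF1 and 0.102 and 0.0937 in ZnF4, with both ZnF4 libraries between the wild-type ones. Of 15 pairs of members computed, 5 had both ZnF4 libraries above the other 4 and 0 had both below. In Elane over Retnlg, ZnF1 replicate 2 lay between the wild-type libraries. The pairs were chosen with the values known, and the ratios carry no test.

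**Figure D4:**
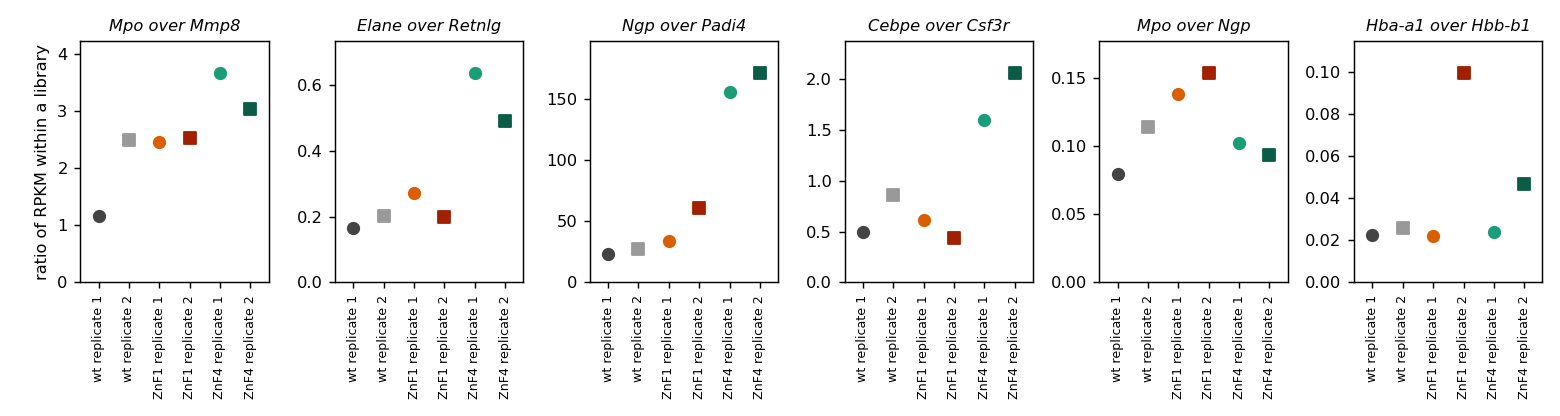
Ratio of RPKM of 6 pairs of members within each library; each point is 1 library, and each panel has its own linear axis from 0. Both ZnF4 libraries are highest in the first 4 panels (156 and 172 for Ngp over Padi4) but not for Mpo over Ngp (0.102 and 0.0937), and ZnF1 replicate 2 is highest for Hba-a1 over Hbb-b1 (0.0998).

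Other genes of the same lineages were read from lists of textbook markers. Of 36 other neutrophil genes in the table, 30 were tested and 0 called in any comparison, and the medians were 2.0 (log2) in ZnF1 against wild type, 0.89 in ZnF4 against wild type and 0.89 between the mutants. At an unadjusted p under 0.05 by limma, 22, 5 and 7 of the 30 were higher and 1, 1 and 0 lower. Over all 10322 tested genes, 669, 850 and 1097 were higher and 563, 950 and 967 lower. That is the background for the same counts of the lists below. The 2 most abundant of them were Cybb, the oxidase subunit, at 78.5 to 104.2 RPKM, and Serpinb1a, a protease inhibitor. Serpinb1a was at 87.8 and 54.2 RPKM in wild type, 79.0 and 109.5 in ZnF1 and 55.2 and 72.0 in ZnF4, so that only ZnF1 replicate 2 lay outside the range of the wild-type libraries. Of 33 other erythroid genes, 30 were tested and 0 called, with medians of 0.97, 0.44 and 0.56, and 1, 0 and 0 were higher and 0, 1 and 0 lower at an unadjusted p under 0.05. Its most abundant genes were Slc25a37, the mitochondrial iron importer, at 47.0 to 78.5 RPKM and Blvrb, a biliverdin reductase, at 35.3 to 65.0, where Blvrb was below wild type in ZnF4 and in ZnF1 alike. Of the 36 and 33, 28 and 27 tested genes were highest in ZnF1 replicate 2, against 18.5% of all tested genes. Some of these reached the minimum mean only through that library, so their values in it had to be high. They were Olfm4 and Asprv1 of the neutrophil list, and Ank1, Rhag, Add2, Tal1, Gfi1b and Kel of the erythroid list.

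Of 25 other monocyte and macrophage genes, 18 were tested, with medians of 1.30, 0.20 and 0.99. At an unadjusted p under 0.05 by limma, 10, 1 and 6 of the 18 were higher and 0, 1 and 0 lower. Of the 18, 12 were highest in ZnF1 replicate 2. Of these 12, Ms4a6d and Ccl9 reached the minimum mean only through that library. Lgals3 (galectin 3) was called in ZnF1 against ZnF4, higher by 2.0 (SE 0.32, adjusted p = 0.0185 by limma), at 13.3 and 29.8 RPKM against 4.5 and 4.7. That call was lost with only the 2 mutants (adjusted p = 0.0578), with no filter (0.0790), without either wild-type library (0.0565 and 0.0560) and without either ZnF4 library (0.184 and 0.176). The chemokine Ccl6, the most abundant of this list ahead of Lgals3, was at 3.0 and 5.3, 7.0 and 48.1, and 4.2 and 3.3. The macrophage complement gene C1qa had another order, at 6.2 and 1.8, 9.2 and 5.6, and 5.8 and 3.6 RPKM, and was not highest in ZnF1 replicate 2.

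Genes of other granulocytes were also high in ZnF1 replicate 2. Of 15 eosinophil, basophil and mast cell genes, 10 were tested, 0 called and 9 highest in ZnF1 replicate 2. Ear1, Cpa3 and Ccr3 reached the minimum mean only through that library, so their values in it had to be high. Ear1 was at 5.8 RPKM there and at most 0.5 elsewhere. The medians of the 10 were 1.40, -0.05 and 0.76, and 4, 3 and 0 were higher and 0 lower at an unadjusted p under 0.05 by limma. The 2 most abundant were the eosinophil granule protein Prg2, at 7.8 and 39.5 RPKM in wild type, 10.1 and 200.1 in ZnF1 and 15.6 and 16.8 in ZnF4, and the basophil protease Prss34, at 1.8 and 2.3, 7.7 and 46.3, and 12 and 14.6. Prg2 was high in wild-type replicate 2 and ZnF1 replicate 2, while Prss34 was above wild type in all 4 mutant libraries. Megakaryocyte and platelet genes were scarce: 0 of 12 reached a mean of 1 RPKM. Their sum was 4.14 and 5.65 RPM in wild type, 5.19 and 13.9 in ZnF1 and 7.35 and 9.10 in ZnF4, again highest in ZnF1 replicate 2 and above wild type in both ZnF4 libraries.

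Lists of other cells are given for completeness. Of the NK and plasmacytoid dendritic cell list 8 of 13 genes were tested, with medians of 0.32, -0.37 and 1.11. At an unadjusted p under 0.05 by limma, 3, 1 and 4 were higher and 0, 2 and 1 lower. Gzma, at 4.6 RPKM in ZnF1 replicate 2 and at most 1.3 elsewhere, reached the minimum mean only through that library. The most abundant genes of this list were Ly6d (1124.5 to 1607.9 RPKM), which B cells also express, and Bst2. Bst2 was higher in ZnF1 than in ZnF4 by 1.29 (SE 0.18, adjusted p = 0.0112 by limma), at 75.3 and 59.9 against 24.5 and 30.0 RPKM. The Bst2 call was lost with no filter (adjusted p = 0.0581) and without either ZnF4 library (0.15 and 0.0888). Of 7 plasma cell genes 5 were tested, with medians of -0.67, -0.19 and -0.65, and Sdc1 (CD138) was lower in ZnF1 than in wild type by -2.24 (SE 0.28, adjusted p = 0.0347 by limma), a call lost in 8 alternatives (adjusted p from 0.0511 to 0.251). Igj and 2010001M09Rik were the most abundant of that list, and Igj lay between 1.1 and 413.8 RPKM with its highest value in wild-type replicate 1. T cell genes had 2 of 9 tested (Lck and Cd5), with medians of -0.43, -0.01 and -0.42. Stroma and endothelium had 4 of 11 tested (the most abundant Pecam1 and Alpl), with medians of -0.21, 0.01 and -0.33. All 11 B cell genes found were tested (the most abundant Cd74 and Cd79b), 0 were called (2, 0 and 1 higher and 2, 1 and 0 lower at an unadjusted p under 0.05), and the medians were -0.09, -0.19 and 0.04.

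The genes most like the members were found by Pearson r with the mean profile of each side over the 6 libraries, among 7697 genes with a mean of at least 5 RPKM. For the granulocyte and monocyte side they were 1810033B17Rik, Pygl, Rffl, Igsf6, C3, Ifitm6, Itgb2l, Pram1, Hp and Hk3 (r from 0.992 to 0.997). Pygl, liver glycogen phosphorylase, was at 2.2 and 3.9 RPKM in wild type, 7.2 and 37.4 in ZnF1 and 5.8 and 6.6 in ZnF4. For the erythroid side they included Beta-s, Hars2, Ctse, Rab27a, Aqp1, Dgat1, Otud5 and Fnbp4 (r from 0.970 to 0.985). Beta-s is the beta-globin Hbb-bs, at 242.3 and 227.5, 177.1 and 1182.1, and 243.9 and 402.7 RPKM. Its coding sequence differs at 1 of 444 bases from that of Hbb-bt, the member row Hbb-b1. Reads shared by these 2 genes may therefore enter both rows, and how the authors treated them is not given in the sources used here. With 6 points and 1 library far above the rest, r says mostly that a gene was highest in ZnF1 replicate 2, and not every such gene had a large range: Otud5 lay between 67.2 and 77.9 RPKM.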

How the data were processed

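Messenger RNA was measured in 6 libraries of sorted IgM+ B cells, grouped by the genotype in the labels. The authors deposited 1 table of RPKM values in steps of 0.1 with transcript lengths; TopHat, bedtools and the assembly mm9 are named per the submitters' processing notes, and versions and the read total used for scaling are not given in the sources used here. Sequencing depth is therefore unknown, and no counting interval is given. The highest-mean transcript stood for each gene name, and genes had to reach a mean of 1 RPKM over the libraries, which left 10322.

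Values were used as log2(RPKM + 0.5). The test was limma (version 3.58.1, under R 4.3.3) with a mean for each genotype and all libraries in 1 fit (eBayes with trend, two-sided, Benjamini-Hochberg over all tested genes, called at adjusted p under 0.05), which leaves 3 residual degrees of freedom. A fold change on this scale understates the change of low genes. Alternatives were other pseudocounts, filters and scalings, no trend, only 2 genotypes, a replicate block and leaving out each library. A genotype left with a single library adds nothing to the spread. Leaving out a library of the genotype outside a comparison therefore nearly repeats the fit with only 2 genotypes. Members, lists and pairs were chosen with earlier results of these data known. Fold changes are given for called members, the most abundant tested member of each role and the smallest p per comparison; from other lists, the 2 most abundant tested genes and called ones. Csf1r and Cebpe estimates in a caption, Cd3e, C1qa, Pygl and Otud5 were added after their values were seen. Sequences came from RefSeq (GRCm38.p6) and GENCODE M21 (GRCm38), and were matched by symbol, since the table's own coordinates were not used. Some of the genes most like the erythroid members are not reported here.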

Additional observations from a re-analysis of the deposited data

How the results depend on the processing

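With 2 libraries per genotype, leaving out 1 library moved most counts, and a lone library was then assumed to vary like the other groups. Over these leave-outs, genes called lay between 0 and 512 in ZnF1 against wild type, 0 and 591 in ZnF4 against wild type, and 0 and 814 between the mutants. Members called lay between 0 and 34, 0 and 9, and 0 and 32. Granulocyte and monocyte medians lay between 0.97 and 3.59 in ZnF1 against wild type and between -0.13 and 2.46 between the mutants, and erythroid medians between -0.13 and 2.55, and -0.76 and 1.93. Genes called were 0, 189 and 309 with no filter on low values, against 28, 330 and 493 as reported. With only the 2 genotypes compared they were 0, 594 and 249, with 9 members called in ZnF4 against wild type. Quantile normalization gave 13 in ZnF1 against wild type. Between the mutants 0 members were called with no filter, without trend and with only the 2 genotypes. The lowest and highest fold changes of single genes over the leave-outs were as follows. In ZnF1 against wild type they were -0.66 and 1.81 for Hbb-b2, -1.18 and 1.95 for Alas2 and -0.53 and 2.75 for Slc4a1. In ZnF4 against wild type they were -0.025 and 0.60 for Hbb-b2 and -0.24 and 0.40 for Alas2. Between the mutants they were -0.12 and 2.09 for Prtn3, -0.44 and 2.12 for Ngp, -0.35 and 2.09 for S100a9, -0.041 and 2.54 for Itgam, -0.95 and 1.52 for Hbb-b2, -1.26 and 1.87 for Alas2, -0.76 and 2.14 for Hemgn and -1.35 and 1.93 for Slc4a1. For changes without fewer samples or genes, the cause was not tested. Same-numbered libraries were not paired by the labels, and their deviations correlated at 0.28 (wild type and ZnF1), -0.033 (wild type and ZnF4) and 0.208 (ZnF1 and ZnF4); a replicate block gave 27, 327 and 529 genes and 0, 0 and 1 members called. Counting each globin pair once, an alternative chosen after seeing the data, gave the same erythroid medians (1.28, 0.57 and 0.69). Other pseudocounts, filters and scalings left the direction of the side medians as reported.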
